A study of Mus musculus and Homo sapiens with 28 samples.

Results

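Interferon-inducible GTPases of the guanylate-binding protein (GBP) and immunity-related GTPase (IRG) families were followed in mouse tumours by RNA sequencing. The 10 members were taken by gene name as rows of the mouse expression table: Gbp2, Gbp3, Gbp4, Gbp5, Gbp6, Gbp7, Irgm1, Irgm2, Igtp and Iigp1, out of 46078 rows. All 10 passed a filter on low values (a mean of at least 3 over all libraries), as did 15916 rows in all. The tumours grew from Renca cells, a mouse renal carcinoma line, injected in Matrigel under the skin of the back, although the labels name the tissue as kidney. Libraries were labelled WT or SETD2 KD, for a knockdown of the histone H3 lysine 36 methyltransferase SETD2. Animals were left untreated or were given VE822, an inhibitor of the DNA damage kinase ATR, by oral gavage at 60 mg/kg on 5 days in a row each week, from a tumour volume of about 100 mm3. There were 7 WT untreated, 6 WT VE822, 6 SETD2 KD untreated and 5 SETD2 KD VE822 libraries, 24 in all. The labels do not say that each library is a separate animal, so p-values measure the spread between libraries, which may in part be technical. The sources used here give neither the host strain and age nor the way the knockdown was made. From the series title, the question was whether SETD2 loss and ATR inhibition together raise cGAS signalling, the cytosolic DNA sensing pathway that leads to type I interferon.

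GBPs are large GTPases that coat the membranes of intracellular pathogens and their vacuoles and help set off inflammasome signalling, and Gbp2 and Gbp5 end in a prenylation motif that anchors them to membranes. IRG proteins divide into effectors such as Iigp1 (Irga6), which load onto vacuoles, and the regulators Irgm1, Irgm2 and Igtp (Irgm3), which keep effectors inactive on the cell's own membranes. Both families are transcribed mainly after interferon gamma, the cytokine of T and NK cells, through GAS and ISRE elements in their promoters, and many members answer to type I interferon as well.

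The promoter stretches below show matches to the patterns of these elements. Whether any match is in use was not tested. Sequences are from RefSeq on GRCm38.p6, read 5′ to 3′ on the gene's strand within 250 bases before to 50 after the start. That start is the RefSeq one, which can differ from the GENCODE annotation of the gene. By GENCODE, the stretches of Gbp2, Gbp3 and Irgm1 meet an exon. Those of Gbp5, Irgm1 and Irgm2, and part of that of Gbp2, lie within the gene's annotated span. Capitals mark matches to the ISRE core, GAAA NN GAAA, or TTTC NN TTTC on the other strand (N is any base), and to the palindromic GAS pattern TTCNNNGAA, and matches can overlap. Entries matched 7 members, and Gbp4, Gbp6 and Iigp1 had no entry.
Gbp2 (chr3:142620594-142620623, plus strand): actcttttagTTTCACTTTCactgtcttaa
Gbp3 (chr3:142559992-142560021, plus strand): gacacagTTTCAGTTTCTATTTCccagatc
Gbp5 (chr3:142496754-142496793, plus strand): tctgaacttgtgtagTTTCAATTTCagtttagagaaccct
Gbp7 (chr3:142530215-142530307, plus strand): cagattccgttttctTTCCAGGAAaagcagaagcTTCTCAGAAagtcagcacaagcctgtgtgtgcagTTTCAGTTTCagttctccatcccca
Irgm1 (chr11:48871428-48871457, minus strand): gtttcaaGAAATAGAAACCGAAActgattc
Irgm2 (chr11:58214887-58214937, plus strand): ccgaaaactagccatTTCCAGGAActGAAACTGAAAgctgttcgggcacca
Igtp (chr11:58199496-58199546, plus strand): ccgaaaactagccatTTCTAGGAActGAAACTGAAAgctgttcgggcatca

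All 7 members with an entry held at least 1 ISRE core, against 3.44% of 32851 promoter windows of the same length, and Gbp3 and Irgm1 each held 2 overlapping ones. Members are counted here by gene and the background by window, and a second window of Gbp3 held neither pattern. A GAS pattern stood in 4 of the 7 (Gbp5, Gbp7, Irgm2 and Igtp), against 8.30% of windows; those of Gbp5 lie outside the stretch printed. The Irgm2 and Igtp stretches, both 51 bases long, differ by C19T, which falls in the GAS match, and by C49T (Irgm2 base, position from the 5′ end, Igtp base). Gbp2, Gbp3, Gbp5 and Gbp7 lie in a cluster on chromosome 3, where Gbp2b stands between Gbp3 and Gbp2, Gbp4 and Gbp6 on chromosome 5, the 3 IRG regulators on chromosome 11 and Iigp1 on chromosome 18. Some reads cannot be placed with certainty. Of the 50-base words in Gbp6 transcripts, 90.2% also occur in transcripts of the neighbouring Gm43302 and 62.3% in those of Gbp10. Igtp overlaps the annotated span of Irgm2 on the same strand and shares 11.8% of its 50-base words with it. For the other 7 members the share found in transcripts of any other gene ran from 0.23% (Gbp5) to 12.7% (Gbp7).

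Values are the authors' regularised log (rlog) values on the log2 scale, which pull low genes towards their mean, so that differences are smaller than plain log2 ratios. They are not per length, and levels are compared between libraries only. Library medians ran from 9.13 to 9.21. Setd2 did not separate the genotype labels in untreated tumours (10.83 ± 0.07, SD, n = 7, labelled WT, against 10.81 ± 0.07, n = 6, labelled SETD2 KD). It fell with VE822 under both labels, by 0.80 and 1.09. Under VE822 it was lower in libraries labelled SETD2 KD, with a difference of -0.31 that was not called (limma adjusted p = 0.225, unadjusted p = 0.00613). Genotype is therefore used here as a label only. Skeletal muscle markers averaged 6 or more in 4 libraries, WT untreated replicate 4 and WT VE822 replicates 1, 2 and 4. Renal epithelial markers had a list mean of 10.5 to 10.7 in untreated and 10.2 to 10.6 in VE822 libraries. Of 8, 5 fell with VE822 under each label, where 17.5% of tested genes (WT label) and 11.6% (SETD2 KD label) were called lower. Krt18 fell by 0.84 and 0.91 and Krt8 by 0.58 and 0.61, against the direction of the GTPases. Going the other way, 1 marker rose under the WT label and 2 under the SETD2 KD label. The largest change of the list was a rise, that of Epcam, by 1.31 and 1.00. In these bulk tumours, fewer cells of a type and less RNA per cell cannot be told apart.

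One untreated library stood apart for the GTPases themselves. WT untreated replicate 1 had a mean of 9.70 over the 10 members, against 8.40 to 8.70 in the other 6 WT untreated libraries, and it was the highest of its group for all 10. Its Iigp1 value was 11.21, against 8.39 to 8.97 in the others, and its Igtp value 10.74, against 8.91 to 9.11. The T cell marker mean was also highest in that library (5.47, against 4.80 to 4.93). So were the means of NK and cytotoxic (3.64, against 3.25 to 3.37), dendritic (6.12, against 5.45 to 5.88), endothelial (8.69, against 7.71 to 8.24) and fibroblast markers (10.29, against 8.32 to 9.85) and of type I interferon genes (10.04, against 9.75 to 9.94). WT VE822 replicate 3 stood at the other end of its group, with a member mean of 8.48, while the other 5 WT VE822 libraries ran from 9.01 to 10.15. Its Gbp7 (9.39) and Irgm1 (10.15) values were the lowest of all 24 libraries.

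**Figure D1:**
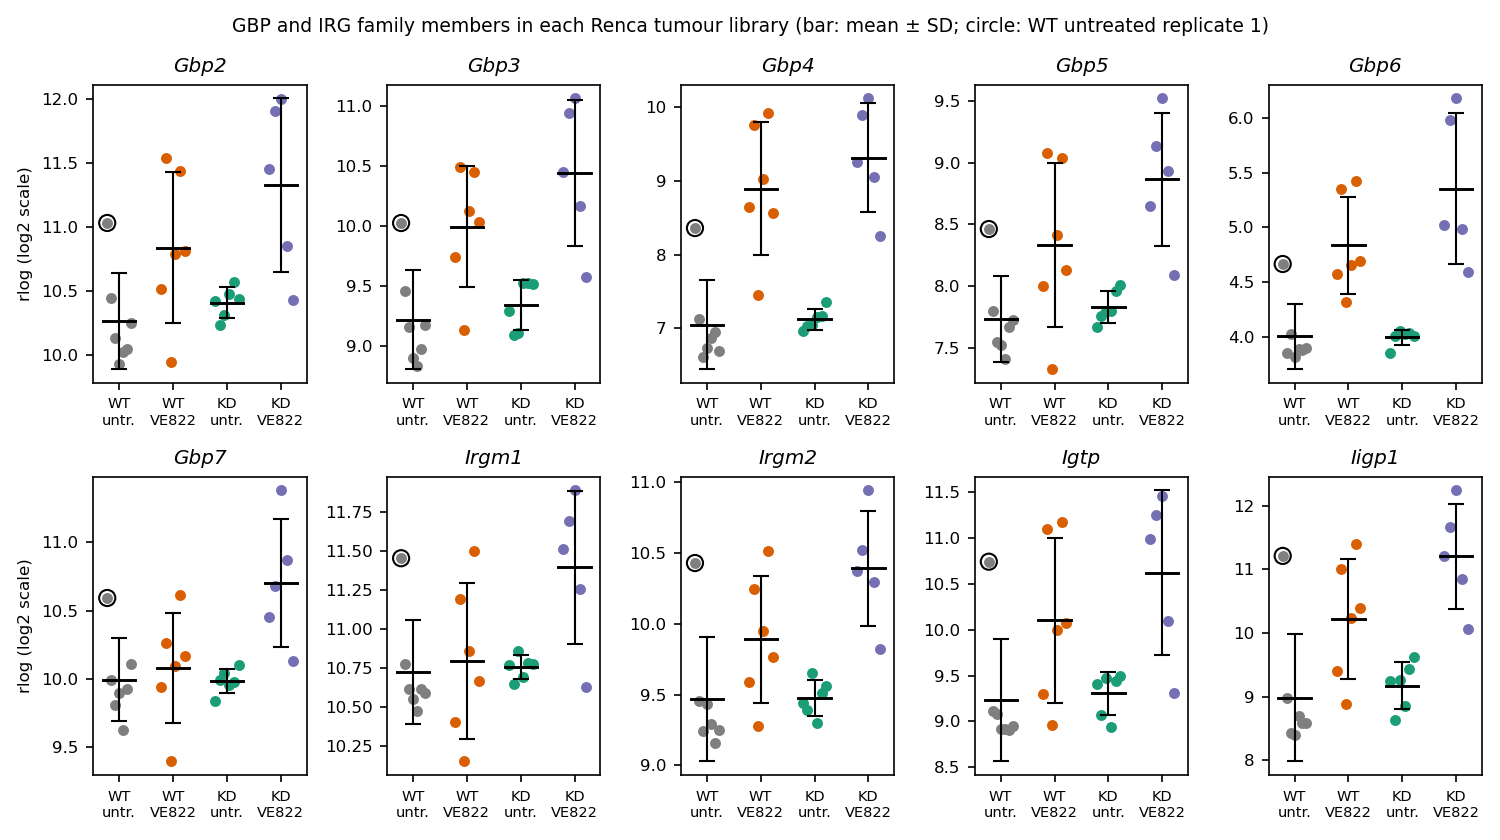
Expression of the 10 GTPase genes (rlog, log2 scale, vertical axes) in each of 24 Renca tumour libraries, by genotype label and treatment; 1 point is 1 library, long bars are group means and whiskers SD, and the circled point is WT untreated replicate 1. In each panel the SETD2 KD VE822 mean is the highest of the 4, the SETD2 KD untreated libraries lie close together, and the circled library lies above the other 6 WT untreated ones.

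Under the WT label, Gbp3, Gbp4, Gbp6 and Iigp1 were higher with VE822 than without, and no member was lower. This is 4 of 10 members called, where 17.2% of all tested genes were called higher. The median difference over the members was 0.69 on the log2 scale, against 0.011 over all tested genes. No member had every WT VE822 library above every WT untreated one, which 6.25% of tested genes did.

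Gbp4, a GBP of the chromosome 5 cluster, moved most. WT untreated libraries ran from 6.61 through a median of 6.87 to 8.36, and WT VE822 libraries from 7.45 through 8.84 to 9.92. The groups met only because WT untreated replicate 1 lay above WT VE822 replicate 3, and 5 of 6 treated libraries exceeded every untreated one. Gbp4 rose by 1.84 ± 0.34 (SE; limma adjusted p = 0.000189). Gbp6, of the same cluster and the least certain in read placement, ran from 3.81 through 3.89 to 4.67 untreated and from 4.31 through 4.68 to 5.42 with VE822. All 6 treated libraries lay above the untreated mean, and Gbp6 rose by 0.83 ± 0.22 (limma adjusted p = 0.00441).

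Iigp1, the IRG effector, ran from 8.39 through 8.59 to 11.21 untreated and from 8.88 through 10.32 to 11.39 treated under the WT label. Replicate 1 of the untreated group lay above 5 of the 6 treated libraries. The rise was 1.24 ± 0.43 (limma adjusted p = 0.0271), and the call was lost without WT untreated replicate 3, 4 or 7 (adjusted p = 0.0536, 0.0537 and 0.0508) or WT VE822 replicate 2 or 5 (0.0698 and 0.0767). Gbp3 ran from 8.84 through 9.16 to 10.03 untreated and from 9.14 through 10.08 to 10.49 treated. It rose by 0.78 ± 0.23 (limma adjusted p = 0.0110), with 4 of 6 treated libraries above every untreated one.

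The remaining 6 were not called under the WT label. Differences were 0.57 for Gbp2 (limma adjusted p = 0.0709), 0.60 for Gbp5 (0.0524), 0.87 for Igtp (0.0689) and 0.43 for Irgm2 (0.0957). These 4 passed the threshold when WT untreated replicate 1 was left out (adjusted p = 0.0267, 0.0200, 0.0130 and 0.00891) and also when WT VE822 replicate 3 was (0.0163, 0.00670, 0.0240 and 0.0331). Without either library the count of members called was 8 of 10 in place of 4. The share of all tested genes called in these fits is not given here, so this move is not read as particular to the members. Gbp5 and Igtp also passed without WT VE822 replicate 1 (adjusted p = 0.0443 and 0.0401). Gbp7 and Irgm1 differed by 0.09 and 0.07 (limma adjusted p = 0.731 and 0.807), and 4 and 3 of their 6 treated libraries lay above the untreated mean. Without the 4 libraries high in skeletal muscle markers, which leave 3 treated libraries, only Gbp4 was called. The differences were then 0.60 for Gbp3 (adjusted p = 0.163), 0.77 for Gbp6 (0.0559) and 1.14 for Iigp1 (0.155).

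Under the SETD2 KD label all 10 members were higher with VE822, where 10.6% of tested genes were called higher. The median difference was 1.07, against 0.0052 over all tested genes. For 7 of 10 members every VE822 library lay above every untreated one, which 5.30% of tested genes did; the exceptions were Gbp2, Irgm1 and Igtp. The untreated libraries of this label were close together, with SDs of 0.07 to 0.37 over the 10 members.

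Gbp4 stood at 9.26, 9.90, 10.12, 9.06 and 8.25 in SETD2 KD VE822 replicates 1 to 5 and ran from 6.97 through 7.10 to 7.36 in the untreated libraries. The groups were well apart, and Gbp4 rose by 2.20 ± 0.37 (limma adjusted p = 0.000147). Iigp1 stood at 11.21, 11.66, 12.25, 10.85 and 10.07 with VE822 and ran from 8.63 through 9.25 to 9.62 without. Its rise was 2.03 ± 0.46 (limma adjusted p = 0.00274), the second largest of the members. Gbp6 stood at 5.02, 5.98, 6.18, 4.99 and 4.60 with VE822 against 3.86 through 4.02 to 4.05 untreated. It rose by 1.36 ± 0.23 (limma adjusted p = 0.000214), again with no overlap.

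The chromosome 3 GBPs had smaller differences. Gbp3 stood at 10.46, 10.95, 11.07, 10.17 and 9.58 with VE822, all above the untreated range of 9.09 to 9.53, and rose by 1.10 ± 0.25 (limma adjusted p = 0.00264). Gbp5, which promotes NLRP3 inflammasome assembly, stood at 8.65, 9.14, 9.52, 8.93 and 8.09, all above 7.67 to 8.01, and rose by 1.03 ± 0.26 (0.00511). Gbp7 stood at 10.45, 10.68, 11.38, 10.87 and 10.13, all above 9.84 to 10.10, and rose by 0.72 ± 0.19 (0.00801). Gbp2 was the exception to this separation. Its VE822 values were 11.45, 11.91, 11.998, 10.85 and 10.43 and its untreated range 10.23 to 10.57, so that replicate 5 fell inside the untreated range. It rose by 0.92 ± 0.26 (limma adjusted p = 0.0141), a call lost without SETD2 KD VE822 replicate 2 or 3 (0.0534 and 0.0537).

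Among the IRG regulators Igtp had the largest rise, 1.32 ± 0.40 (limma adjusted p = 0.0192), from 8.94 through 9.43 to 9.50 untreated to 10.99, 11.25, 11.46, 10.10 and 9.31 with VE822. Replicate 5 again lay inside the untreated range, and the call was lost without SETD2 KD VE822 replicate 2 or 3 (adjusted p = 0.0603 and 0.0635). Irgm2 stood at 10.38, 10.52, 10.94, 10.29 and 9.82, all above 9.30 to 9.65, and rose by 0.91 ± 0.21 (0.00320). Irgm1 had the smallest rise of the 10, 0.64 ± 0.21 (limma adjusted p = 0.0319), with VE822 values of 11.51, 11.69, 11.89, 11.26 and 10.62. Its replicate 5 lay below the whole untreated range of 10.65 to 10.86. The Irgm1 call was lost without SETD2 KD untreated replicate 1, 2 or 4 (adjusted p = 0.0504, 0.0569 and 0.0553) or SETD2 KD VE822 replicate 1, 2 or 3 (0.0610, 0.0881 and 0.101). SETD2 KD VE822 replicate 5 had the lowest value of its group for all 10 members, and its T cell marker mean, 5.64, was also the lowest of the group (the other 4 ran from 6.03 to 6.49).

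The genotype label alone separated no member. In untreated tumours the members differed by -0.01 to 0.19 between the labels, and limma called 0 of 10, as it did 0% of tested genes; none had an unadjusted p under 0.05, as 3.22% of tested genes did. Under VE822 all 10 were higher in libraries labelled SETD2 KD, by 0.42 (Gbp4) to 0.98 (Iigp1), with a median of 0.52 against -0.003 over all tested genes. None was called by limma, where 0.0126% of tested genes were, and 6 had an unadjusted p under 0.05, as did 12.8% of tested genes. The nearest was Gbp7, at 0.62 ± 0.19 (limma adjusted p = 0.194; exact two-sided permutation test over the libraries, unadjusted p = 0.0390), and it was the 1 member under 0.05 by the permutation test.

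The difference between the VE822 effects under the 2 labels was tested as an interaction. It was positive for all 10 members, from 0.32 (Gbp3) to 0.79 (Iigp1), and limma called 0 of 10 and 0% of tested genes. Gbp7 alone had an unadjusted p under 0.05 (0.63 ± 0.26, limma adjusted p = 0.505), as did 9.12% of tested genes, so 1 of 10 is near the background. A larger effect of VE822 under the SETD2 KD label was therefore not shown for any member, although 10 were called under one label and 4 under the other.

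Libraries labelled SETD2 KD and given VE822 were also compared with WT untreated ones, the 2 ends of the design. All 10 members were higher, by 0.67 (Irgm1) to 2.27 (Gbp4), where 12.1% of tested genes were called higher. None had every library of the first group above every library of the second, which 3.99% of tested genes did. WT untreated replicate 1 overlapped the treated range for each member. The Irgm1 call was lost without SETD2 KD VE822 replicate 2 or 3 (limma adjusted p = 0.0612 and 0.0724).

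The order of the 4 group means was the same for 8 members, from WT untreated through SETD2 KD untreated and WT VE822 to SETD2 KD VE822. Gbp6 and Gbp7 differed from it only in having SETD2 KD untreated lowest. The 2 lower neighbours and the 2 higher neighbours in this order were not told apart by limma for any member. Across the middle step, every WT VE822 library lay above every SETD2 KD untreated one for Gbp4 and Gbp6 only, a pair of groups that was not tested.

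The members rose and fell together from library to library within groups. After each library's value had its group mean removed, Pearson's r over 24 libraries ran from 0.79 (Gbp2 and Gbp7) to 0.97 (Irgm1 and Igtp) over the 45 pairs, with a median of 0.91. Without WT untreated replicate 1 the median was 0.90. These libraries share their depth and cell makeup across genes, and the values are given as a description.

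**Figure D2:**
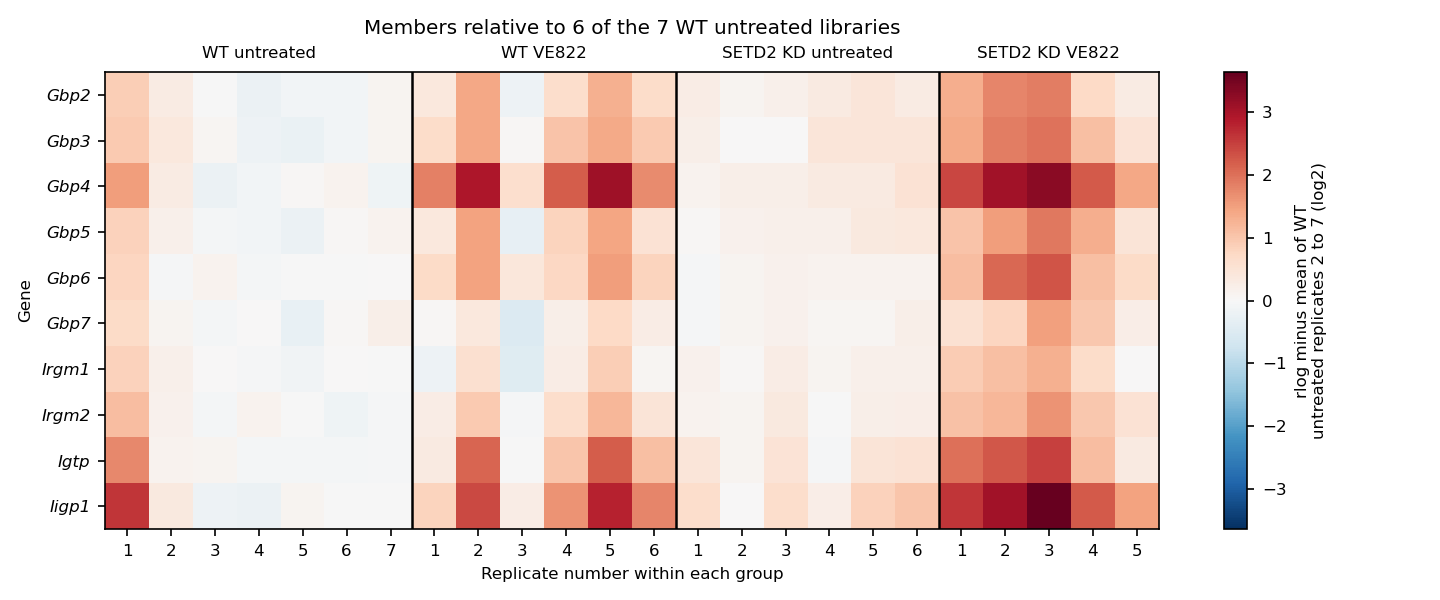
Each cell gives the rlog value of 1 member (rows) in 1 library (columns, numbered by replicate within 4 groups) minus that gene's mean over WT untreated replicates 2 to 7, on the log2 scale (red higher, blue lower). WT untreated replicate 1 is red for all 10 genes, WT VE822 replicate 3 is pale or blue for most, and Gbp4 and Iigp1 show the deepest red in the VE822 libraries.

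The size of the change differed among members even as they varied together. Gbp4 minus Irgm1 within a library was -3.68 ± 0.29 (SD, n = 7) in WT untreated and -1.90 ± 0.45 (n = 6) in WT VE822 tumours, and -3.63 ± 0.15 (n = 6) and -2.08 ± 0.28 (n = 5) under the SETD2 KD label. These 2 genes had the largest and the smallest differences, so their shift restates that choice and is a description. Igtp minus Irgm2 overlapped between untreated and VE822 libraries under both labels (-0.51 to 0.31 against -0.31 to 0.85, and -0.35 to -0.03 against -0.51 to 0.73). In WT untreated replicate 1 the pattern was another one. There Iigp1 and Igtp lay furthest above the mean of the other 6 libraries, by 2.60 and 1.76, and Gbp4 by 1.53. In the WT VE822 group the corresponding means were 1.61, 1.12 and 2.06.

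By likeness to the mean of the 10 members over the same 24 libraries, the 10 nearest other genes were Gbp2b (Pearson's r = 0.99), Gm4951 (0.98), Tgtp2 (0.97), Gm12250 (0.96), Batf2 (0.96), Cxcl9 (0.95), Tgtp1 (0.95), Ubash3a (0.93), AW112010 (0.93) and Ifi47 (0.93). Of these, 6 are themselves GBP or IRG family genes, Batf2 encodes an interferon-induced transcription factor, Cxcl9 a chemokine that attracts T cells and Ubash3a a regulator of T cell receptor signalling. For reference, r was 0.92 for the T cell gene Cd3e and 0.86 for the interferon-induced transcription factor Irf1. For Ciita, of the interferon gamma pathway, it was only 0.66, and 0.565 without WT untreated replicate 1. By rank (Spearman's rho), Cd3e stood at 0.88, Irf1 at 0.67 and Ciita at 0.59. Pearson's r was 0.32 for Ifit1, 0.35 for Isg15 and 0.33 for Mx1, which are classical type I interferon targets, and 0.05 for Setd2.

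Other GTPases of these and related families were also measured, the list including Mx1 and Mx2, which are neither GBP nor IRG genes. Of 21 listed, 18 passed the filter on low values. Under the WT label 10 rose and 2 fell, where 17.5% of tested genes were called lower, and under the SETD2 KD label 13 rose and none fell, where 11.6% were. The medians over the 18 were 0.73 and 1.27. Gbp8 rose by 1.00 (limma adjusted p = 0.00194) and 1.63 (6.76e-05), and Gbp9 by 0.87 (0.000555) and 1.24 (6.48e-05), under the WT and SETD2 KD labels. The IRG effectors Tgtp1 and Tgtp2, which share most of their sequence with each other, rose by 1.19 and 0.94, and by 1.85 and 1.65. Among the IRG genes of chromosome 18, Gm4841 rose by 1.19 and 2.03. The genes that fell were 9930111J21Rik1 and 9930111J21Rik2, by -0.40 (limma adjusted p = 0.0329) and -0.49 (0.00127) under the WT label, and their differences were -0.17 and -0.02 under the other. Those 2 also share most of their sequence. Mx1 and Mx2, dynamin-like GTPases induced mainly by type I and III interferon, were not called under either label (0.39 and -0.28, and 0.10 and -0.27).

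**Figure D3:**
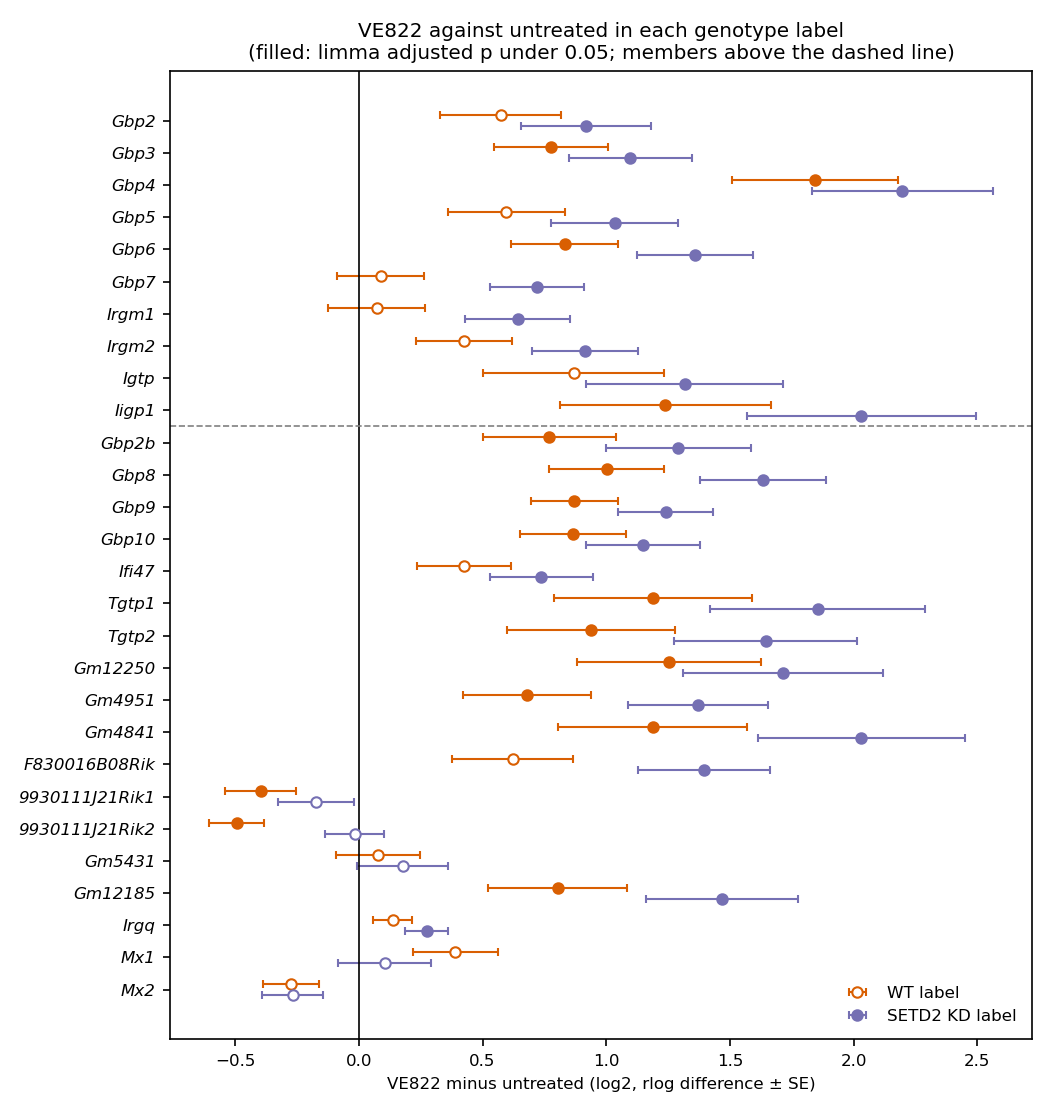
VE822 minus untreated (log2 scale, rlog difference, points with SE) for the 10 members above the dashed line and 18 other GBP, IRG and related GTPase genes below it, under the WT label (orange) and the SETD2 KD label (purple); filled points passed limma's adjusted threshold of 0.05. The SETD2 KD point lies to the right of the WT point for all 10 members, with SE bars that overlap or lie close, and 9930111J21Rik1 and 9930111J21Rik2 lie left of 0.

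Upstream of the GTPases, the interferon gamma pathway changed in part. Of 28 tested genes, 9 rose and 2 fell under the WT label, and 12 rose and 2 fell under the SETD2 KD label. Over all tested genes, 17.2% were called higher and 17.5% lower under the WT label, and 10.6% and 11.6% under the SETD2 KD label. The ligand Ifng stood below the filter, between 2.03 and 2.88 in all 24 libraries. Fitted without the filter, it was higher by 0.28 (limma adjusted p = 0.0530) and 0.49 (0.00405). The receptor chain Ifngr1 fell by 0.53 and 0.47 and the receptor kinase Jak1 by 0.35 and 0.32 under the WT and SETD2 KD labels. Ifngr2 rose by 0.19 under the WT label and differed by 0.13 under the other. Jak2 differed by 0.14 under both and was not called. Cxcl9 rose by 2.57 and 2.90, more than any member.

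A list of 30 type I interferon genes held response genes together with signalling genes such as Ifnar1, Ifnar2, Tyk2 and Irf3. Of the 30, 5 rose and 2 fell under the WT label. There 17.2% of tested genes were called higher and 17.5% lower, so the share of this list that rose is that of the background. The median difference was 0.03. Under the SETD2 KD label 8 rose and none fell, where 10.6% and 11.6% of tested genes were called, with a median of 0.19. The largest rises were those of Zbp1, a sensor of Z-form nucleic acids, by 0.58 and 1.00. Bst2, which tethers budding virus, also rose, by 0.44 and 0.68, but under the WT label Usp18 rose more, by 0.48. Ifih1 and Stat2 fell by 0.33 and 0.32 under the WT label.

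Genes that act with the GTPases at membranes did not rise as a group. Of 15 genes of autophagy conjugation, the machinery that helps place IRG and GBP proteins on vacuoles, none rose and 4 fell under the WT label, and 1 rose and 4 fell under the SETD2 KD label. Those that fell were Sqstm1, Map1lc3a, Map1lc3b and Atg5 under both labels, by 0.19 to 0.42, and Trim21 rose by 0.33 under the SETD2 KD label. Of 14 inflammasome and pyroptosis genes, 2 rose and 3 fell, and 1 rose and 3 fell. Under the WT label 17.2% of tested genes were called higher and 17.5% lower, and under the SETD2 KD label 10.6% and 11.6%. Casp1 fell by 0.40 and 0.20 and the pore-forming Gsdmd by 0.24 and 0.43 under the WT and SETD2 KD labels, and the adaptor Pycard rose by 0.33 and 0.34. Of 8 prenylation genes, 1 rose and 2 fell, and none rose and 1 fell, with the farnesyl and geranylgeranyl transferase subunit Fnta lower by -0.23 and -0.21.

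Markers of T and NK cells moved with the GTPases. Over all tested genes, 17.2% were called higher and 17.5% lower under the WT label, and 10.6% and 11.6% under the SETD2 KD label. Of 10 T cell markers 9 rose under the WT label and 10 under the SETD2 KD label, and of 7 NK and cytotoxic markers 6 and 7. The NK and cytotoxic mean ran from 3.25 to 3.64 in untreated and from 3.44 to 4.42 in VE822 libraries. The T cell marker mean ran from 4.80 to 5.47 in WT untreated, 5.15 to 6.50 in WT VE822, 4.85 to 5.17 in SETD2 KD untreated and 5.64 to 6.49 in SETD2 KD VE822 libraries. Dendritic cell markers rose in 5 of 7 under each label, and their mean ran from 5.45 to 6.14 in untreated and from 6.01 to 6.97 in VE822 libraries. Of 9 macrophage markers, none rose and 2 fell under the WT label, and 1 rose and 2 fell under the other. With 9 markers, these counts are close to the shares of all tested genes. None of 5 neutrophil and 6 endothelial markers was called by limma under either label, and none had an unadjusted p under 0.05. Of the B cell markers, Ms4a1 was below 0 in every library, and of the 3 tested Cd79b rose by 0.40 under the WT label (limma adjusted p = 0.0488) and Cd79a fell by 0.82 under the SETD2 KD label (0.0364). Under the WT label 4 of 6 fibroblast and 2 of 9 skeletal muscle markers rose, and none was called under the other. The muscle count of 2 of 9 is near the share of all tested genes. Tested as an interaction, limma called none of these genes. There 0 of 6 fibroblast and 4 of 9 muscle markers had an unadjusted p under 0.05, as did 9.12% of tested genes. The muscle share is above that background, and WT VE822 replicates 1, 2 and 4 were high in these markers. The fibroblast mean ran from 8.32 to 10.29 in WT untreated, 9.58 to 12.12 in WT VE822, 8.50 to 9.91 in SETD2 KD untreated and 9.07 to 10.35 in SETD2 KD VE822 libraries. The part of NK, dendritic and fibroblast content in the GTPase differences was not tested.

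With the T cell marker mean of each library in the model, no member was called higher with VE822. Gbp4 then differed by 0.39 under the WT label (limma adjusted p = 0.261) and 0.16 under the SETD2 KD label (0.831), and Gbp6 by 0.04 and 0.25. The other 8 members had negative differences under both labels. Irgm1 was called lower under both (-0.81, adjusted p = 5.36e-05, and -0.59, 0.0149), and Gbp7 and Irgm2 under the WT label (-0.63, 0.00367, and -0.43, 0.0219). T cell markers themselves rose with VE822, so this model holds constant a quantity that moved with the treatment.

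**Figure D4:**
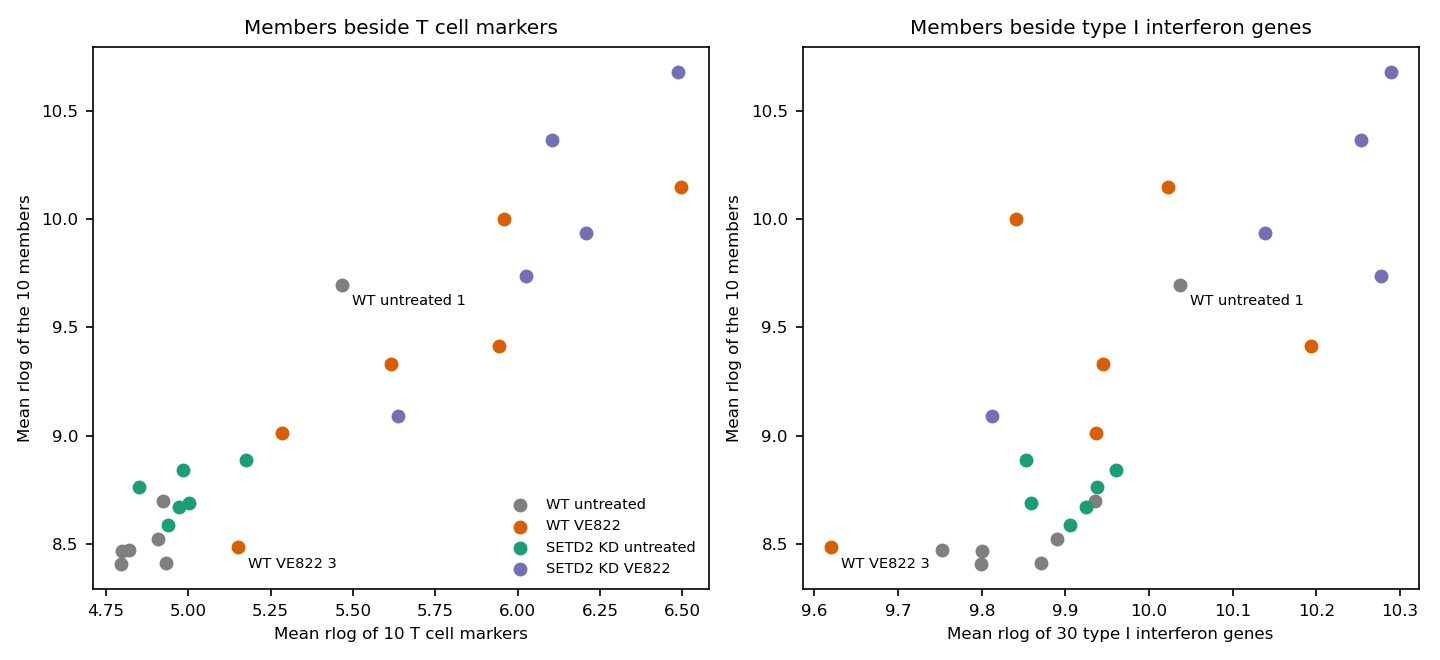
Mean rlog of the 10 members (vertical axes) against the mean rlog of 10 T cell markers (left) and of 30 type I interferon genes (right) in each of 24 libraries, coloured by group. On the left the VE822 libraries and WT untreated replicate 1 extend to the upper right, with T cell marker means up to 6.50 and member means up to 10.68, and on the right the points scatter more widely.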

How the data were processed

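The mouse values were deposited by the authors as regularised log (rlog) values on the log2 scale, 1 row per Ensembl gene. Per the submitters' processing notes, FastQC, TopHat, HTSeq and DESeq2 and the build GRCm38 were used; those notes state no versions, and for strandedness and overlapping genes the handling is not given in the sources used here. Counts are not recoverable from rlog, so depth is unknown and no intervals on counts are given. Names came from GENCODE vM21 (97.971% of rows). Rows with a mean rlog of at least 3 (15916; 16906 rows hold 1 value throughout) were fitted with limma 3.58.1 in R 4.3.3, with 4 group means over 24 libraries, empirical Bayes with a trend, and Benjamini-Hochberg adjustment over all tested rows at 0.05. The model was tested on simulated data. Members and lists were chosen with earlier results of these data known. All members are named, other lists by role or size of difference, and likeness by correlation within groups. Human libraries were not used. Some genes of the lists are not reported here.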

Additional observations from a re-analysis of the deposited data

Results flagged for a closer look

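Each member was examined in each group for a library far from the rest, by Dixon's criterion at 95%, which chance meets in about 1 of 20 groups. Of 40 gene and group pairs, 8 met it, and 7 of these were the same library, WT untreated replicate 1, whose genes are not independent of one another. Its values were 8.36 for Gbp4 (the other 6 ran from 6.61 to 7.13), 8.46 for Gbp5 (7.41 to 7.80) and 4.67 for Gbp6 (3.81 to 4.03). They were 11.45 for Irgm1 (10.47 to 10.77), 10.43 for Irgm2 (9.16 to 9.46), 10.74 for Igtp (8.91 to 9.11) and 11.21 for Iigp1 (8.39 to 8.97). The remaining one was Gbp6 in SETD2 KD untreated replicate 1, which was low at 3.86 where the other 5 ran from 4.01 to 4.05.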

How the results depend on the processing

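Depth is unknown, and the number of libraries limits precision. No paired analysis was possible because the mouse libraries carry no replicate numbers shared across groups. Members called under the WT label numbered 4, 3 to 8 when 1 library was left out (8 without WT untreated replicate 1, and 8 without WT VE822 replicate 3), 8 with library weights, and 1 without the 4 libraries high in muscle markers, an alternative chosen after seeing the data. They numbered 10 under the SETD2 KD label (7 to 10 when 1 library was left out) and 10 between SETD2 KD VE822 and WT untreated (9 to 10). For the altered fits the share of all tested genes called is not given here. With the T cell marker mean as covariate the count under the WT label was 3 and the last 2 counts were 1 each, all of them lower, and signs turned. Under the WT label Gbp3 was then -0.15, Gbp7 -0.63, Irgm1 -0.81, Irgm2 -0.43 and Iigp1 -0.59. Under the SETD2 KD label Gbp2 was -0.47, Gbp3 -0.20, Gbp5 -0.38, Gbp7 -0.28, Irgm1 -0.59, Irgm2 -0.28, Igtp -0.89 and Iigp1 -0.52. Between SETD2 KD VE822 and WT untreated Gbp2 was -0.37, Gbp3 -0.12, Gbp5 -0.34, Gbp7 -0.32, Irgm1 -0.60, Irgm2 -0.31, Igtp -0.89 and Iigp1 -0.42. The cause was not tested. The counts of 0 for the genotype label and the interaction were 0 under every limma alternative run; by the unadjusted permutation test Gbp7 passed between labels under VE822 (p = 0.0390). Other filters, quantile normalisation, removal of chromosome medians, no trend and fitting only the groups compared left the counts within 1.5 times of those reported, but Iigp1 under the WT label lost its call with no filter (adjusted p = 0.0522) and with only the groups compared (0.0546), and Irgm1 under the SETD2 KD label with no filter (0.0618).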
